A study of Phyllostachys edulis with 34 samples.

Results

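PheCAD4 (PH02Gene44682) and PheCAD13 (PH02Gene48685) are 2 of the 14 cinnamyl alcohol dehydrogenase (CAD) genes named in moso bamboo (Phyllostachys edulis), and 2 of the 59091 genes in the deposited tables. They were selected on the values described here, because their levels in stressed leaves lay below the control CK at 3 h and no longer clearly below it at 24 h. Each treatment against CK of the same hour is therefore given as a description, without a test. The time pattern used for the selection held under PEG, NaCl and SA but not under ABA, where neither gene lay clearly below CK at 3 h. For PheCAD13 the later level was above CK rather than back at it.

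CAD enzymes reduce cinnamaldehydes to monolignols, the alcohols that are exported to the cell wall and polymerised into lignin. Plants carry a family of such genes, of which a few serve lignification and others have less certain substrates. The tree published with the data places PheCAD4, PheCAD13 and PheCAD1 in one clade of the family. Lignin makes walls stiff and less permeable to water, and its pathway is known to respond to drought, salt and defence signals.

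The 34 RNA libraries came from young leaves of seedlings in nutrient solution and fall into 11 labelled groups, 4 libraries at 0 h and 3 in each other group. At 3 h and at 24 h the groups were CK, taken as the untreated control although the labels do not spell this out, and seedlings given 25% PEG (polyethylene glycol, an osmotic stress that mimics drought), 200 mM NaCl, 1 mM SA (salicylic acid, a defence hormone) or 1 µM ABA (abscisic acid, the hormone of water stress). Genotype was not varied, and the labels do not say whether a library came from 1 seedling or several. The tissue label could not be checked against leaf markers, since the gene identifiers were not annotated in the sources used here.

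Libraries held between 28153302 and 51695158 counts. The library labelled 0 h replicate 1 stood apart from its group. Across 15779 well-expressed genes its Spearman correlation with the other libraries labelled 0 h was 0.703 to 0.705, whereas with the libraries labelled ABA 24 h it was 0.963 to 0.972. The labels were kept, and results for 0 h and ABA 24 h are given with and without this library or with replicates 2 to 4 labelled 0 h standing in for ABA 24 h.

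Both genes were expressed at low to moderate levels. PheCAD4 had between 21 and 314 counts per library (median 104.5), and PheCAD13 between 55 and 799 (median 192), so both passed the filter on low counts, as did 39392 genes in all. By mean CPM (counts scaled to a common library size), PheCAD4 lay above 42.8% and PheCAD13 above 55.0% of the genes tested. PheCAD1 of the same clade was the more abundant gene, with 386 to 1647 counts. FPKM scales fragments by transcript length and by mapped reads, so it allows levels to be compared between genes, and levels are given on it unless another scale is named. In these whole leaves, fewer cells of a type and less RNA per cell cannot be told apart.

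At 3 h the FPKM of PheCAD4 in the CK libraries was 3.17, 3.35 and 2.80, a mean of 3.11 ± 0.282 (SD, n = 3). Under PEG it was 0.549, 0.443 and 0.816 (0.603 ± 0.192). The lowest of these rested on 21 counts, for which the exact 95% Poisson interval, covering counting error only, was 13 to 32.1. All PEG libraries lay far below all CK libraries, and this was the lowest group mean of the gene. Under NaCl the FPKM was 0.993, 0.788 and 1.17 (0.983 ± 0.189), and under SA 1.22, 1.23 and 1.42 (1.29 ± 0.110). These groups, too, did not overlap CK. Under ABA the libraries spread widely, at 3.37, 2.59 and 1.27 (2.41 ± 1.06), so that 1 of them was in the range of SA while another was above every CK library.

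For PheCAD13 at 3 h, the CK libraries had FPKM values of 3.26, 4.28 and 3.00 (3.51 ± 0.675, SD, n = 3). Under PEG they were 1.20, 1.71 and 1.90 (1.61 ± 0.361). Under NaCl they were 2.02, 2.51 and 1.97 (2.17 ± 0.301). SA gave the tightest group, with 1.99, 1.97 and 2.15 (2.04 ± 0.101), again below every CK library. Under ABA the values 3.52, 4.89 and 4.40 (4.27 ± 0.695) overlapped those of CK. The same 3 treatments were thus low for both genes, and PEG gave the lowest mean of both.

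At 24 h the PheCAD4 libraries of CK had 2.12, 2.53 and 3.37 FPKM (2.68 ± 0.635, SD, n = 3), which overlapped CK at 3 h. PEG libraries had 2.55, 1.73 and 1.98 (2.09 ± 0.421), and SA libraries 2.01, 2.35 and 2.29 (2.22 ± 0.181). Both groups overlapped CK, each with a lower mean. The NaCl libraries, with 4.03, 4.26 and 4.69 (4.33 ± 0.335), were above every other library of the study for this gene in FPKM. In CPM they overlapped the libraries labelled ABA 24 h, at 5.87 to 7.06 against 5.33 to 6.51. The libraries labelled ABA 24 h, with 3.10, 3.59 and 3.75 (3.48 ± 0.335), overlapped CK in FPKM.

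PheCAD13 at 24 h had 3.57, 5.13 and 3.97 FPKM in CK (4.22 ± 0.811, SD, n = 3), within reach of its level at 3 h. Under PEG it had 9.34, 9.76 and 6.92 (8.67 ± 1.53), under NaCl 10.7, 8.28 and 8.99 (9.32 ± 1.23) and under SA 7.55, 8.12 and 7.04 (7.57 ± 0.538). Each of these groups lay wholly above CK. The libraries labelled ABA 24 h had 4.91, 3.37 and 3.74 (4.01 ± 0.801) and overlapped CK. PheCAD13 was thus high under the 3 treatments in which it was low earlier, while PheCAD4 was above CK in FPKM under NaCl only.

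At 0 h the genes differed in where they stood. PheCAD4 had 1.87, 2.08, 1.82 and 1.52 FPKM (1.82 ± 0.231, SD, n = 4), all below every CK library of either hour on this scale. PheCAD13 had 4.20 FPKM in replicate 1, in the range of CK in FPKM, and 7.80, 6.39 and 7.80 in the other libraries labelled 0 h, above every CK library. Without replicate 1 the means were 1.81 ± 0.280 for PheCAD4 and 7.33 ± 0.814 for PheCAD13 (SD, n = 3). Taken as labelled, the 0 h libraries are therefore no second control that both genes share with CK. That reading depends on labels that are in doubt, since the libraries labelled ABA 24 h overlapped CK 24 h in FPKM for both genes. For PheCAD13, replicate 1 fell in the range of the libraries labelled ABA 24 h in both FPKM and CPM. For PheCAD4 in FPKM it fell among the other libraries labelled 0 h and below those labelled ABA 24 h. In CPM its PheCAD4 level of 3.25 was above the other libraries labelled 0 h (2.15 to 2.91) and still below those labelled ABA 24 h. That level was within the range of CK 24 h, where the lowest library had 2.99 CPM. For PheCAD13 the CPM of replicate 1 was just above every CK library.

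**Figure D1:**
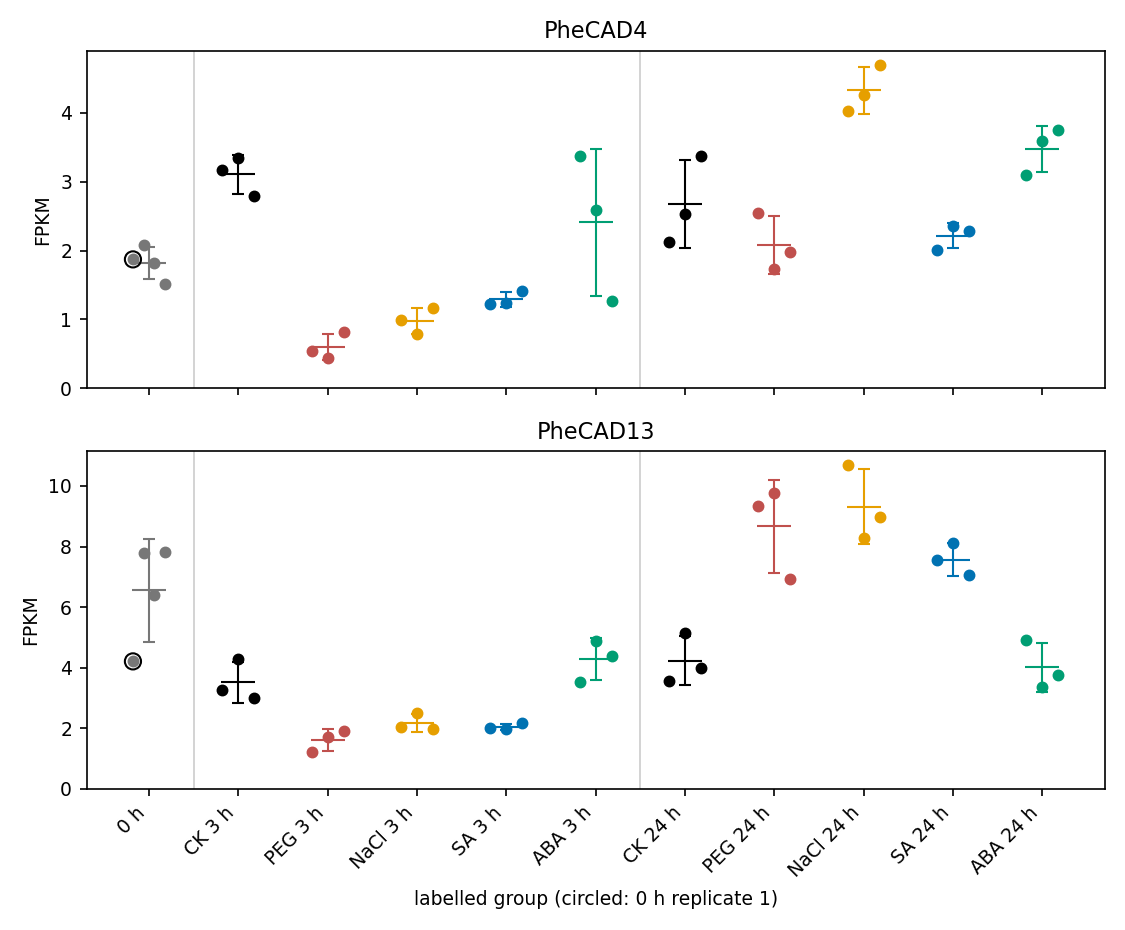
FPKM of PheCAD4 (top) and PheCAD13 (bottom) by labelled group, on axes from 0. Points are libraries, horizontal marks group means and bars SD (n = 3, and 4 at 0 h), and 0 h replicate 1 is circled. For both genes the PEG, NaCl and SA libraries at 3 h lie below CK 3 h, and PheCAD13 under the same agents at 24 h lies above CK 24 h.

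Ordered by mean FPKM, PheCAD4 went from PEG 3 h through NaCl 3 h, SA 3 h, 0 h, PEG 24 h, SA 24 h, ABA 3 h, CK 24 h, CK 3 h and ABA 24 h to NaCl 24 h, and the highest mean was 7.18 times the lowest. Of the neighbours in this order, the libraries did not overlap in FPKM between NaCl 3 h and SA 3 h, between SA 3 h and 0 h, and between ABA 24 h and NaCl 24 h. In CPM only NaCl 3 h and SA 3 h of these stayed apart. SA 3 h had 2.11 to 2.49 CPM against 2.15 to 3.25 at 0 h, and ABA 24 h overlapped NaCl 24 h. PheCAD13 went from PEG 3 h through SA 3 h, NaCl 3 h, CK 3 h, ABA 24 h, CK 24 h, ABA 3 h, 0 h, SA 24 h and PEG 24 h to NaCl 24 h, a range of 5.80 times. Its neighbours were apart between PEG 3 h and SA 3 h and between NaCl 3 h and CK 3 h, and all other neighbours overlapped, although without 0 h replicate 1 the libraries of ABA 3 h and 0 h were apart as well. Both genes thus shared the lowest group, the highest group and the lowest 3 groups. PheCAD1 spanned a range of 1.99 times, the narrowest of the 3 genes. Its highest group mean, 21.7 FPKM at 0 h, includes replicate 1, and without that library the mean was 25.5.

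Relative to CK on the scale of TMM-normalized counts, PheCAD4 at 3 h was lower by a log2 fold change of -1.96 (SE 0.28) under PEG, -1.62 (SE 0.27) under NaCl and -0.90 (SE 0.26) under SA. The level in CK was thus 3.90, 3.07 and 1.86 times that under these agents. For PheCAD13 the values were smaller under each agent, at -0.73 (SE 0.20), -0.68 (SE 0.20) and -0.42 (SE 0.20). Since these contrasts chose the genes, nothing is read from the shares of all genes whose 3 treated libraries lay below the 3 of CK, which were 33.3% for PEG, 32.1% for NaCl and 34.7% for SA. Under ABA at 3 h PheCAD4 had -0.23 (SE 0.26) and PheCAD13 0.40 (SE 0.20), with overlapping libraries. Leaving out 1 library at a time moved the ABA value of PheCAD4 between -0.55 and 0.08.

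At 24 h PheCAD13 had a log2 fold change against CK of 1.21 (SE 0.20) under PEG, 1.24 (SE 0.20) under NaCl and 0.79 (SE 0.20) under SA, and no library overlapped CK. PheCAD4 had 0.79 (SE 0.26) under NaCl, also without overlap, but -0.18 (SE 0.26) under PEG and -0.32 (SE 0.26) under SA, both with overlap. For the libraries labelled ABA 24 h the values were 0.67 (SE 0.26) in PheCAD4, with normalized levels all above CK, and 0.22 (SE 0.20) in PheCAD13, with overlap. When replicates 2 to 4 labelled 0 h stood in for ABA 24 h, the values became -0.57 for PheCAD4 and 0.79 for PheCAD13, so the order of the genes turned. Of all genes, the share with 3 treated libraries above the 3 of CK was 26.6% for PEG, 32.3% for NaCl, 29% for SA and 26.6% for ABA.

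The deposited FPKM and the normalized counts gave different sizes of these differences. The median of all genes, as a log2 ratio of FPKM to CK, was -0.49 under PEG and -0.44 under SA at 3 h, whereas it was -0.10 and -0.07 on the normalized counts. The FPKM ratios of PheCAD4 to CK at 3 h were 0.194 ± 0.064 for PEG, 0.316 ± 0.067 for NaCl and 0.415 ± 0.052 for SA, and those of PheCAD13 were 0.457 ± 0.14, 0.617 ± 0.15 and 0.580 ± 0.12 (propagated SD, n = 3 against 3). Taken relative to the median gene, the log2 FPKM ratio of PheCAD4 was -1.87 under PEG and -0.83 under SA, and that of PheCAD13 was -0.63 under PEG and -0.35 under SA. Under NaCl it was -1.56 for PheCAD4 and -0.59 for PheCAD13. On this scale both genes were below the median gene, in the order PEG, NaCl, SA from the lowest, as on the normalized counts. By the plain FPKM ratio PheCAD13 was lower under SA than under NaCl.

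**Figure D2:**
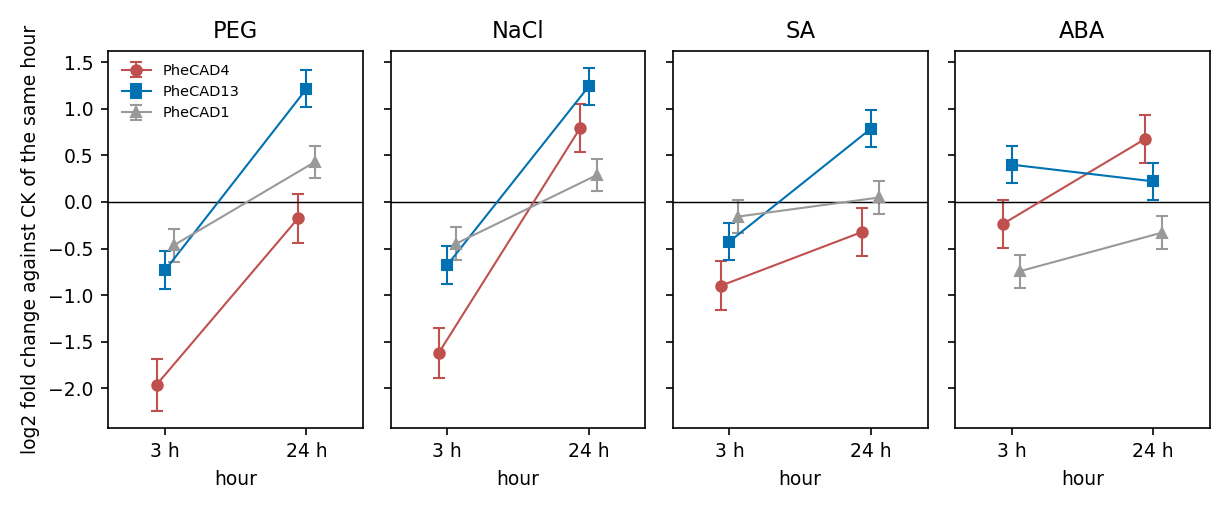
Log2 fold change against CK of the same hour (vertical axis, TMM-normalized counts, bars are SE) at 3 h and 24 h for PheCAD4, PheCAD13 and PheCAD1, in 1 panel per agent, 3 libraries per group. Under PEG, NaCl and SA the lines of PheCAD4 and PheCAD13 start below 0, and PheCAD13 ends at 1.21, 1.24 and 0.79, while under ABA it stays near 0.40 and 0.22.

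Over time, CK itself moved little, with a log2 fold change from 3 h to 24 h of -0.16 (SE 0.26) for PheCAD4 and 0.31 (SE 0.20) for PheCAD13 and overlapping libraries. Within NaCl the difference between the hours was 2.26 (SE 0.27) for PheCAD4 and 2.23 (SE 0.21) for PheCAD13, which is 4.78-fold and 4.70-fold. Within PEG it was 1.63 (SE 0.28) and 2.26 (SE 0.21), and within SA 0.42 (SE 0.26) and 1.53 (SE 0.20). All 24 h libraries were above all 3 h libraries of the same agent in these 3 treatments, for both genes. The share of all genes separated in this way between the hours was not computed, and nothing is read from the separation. Under NaCl the values of the genes were alike, whereas under SA that of PheCAD13 was the larger, with no test of that difference. Within ABA the values were 0.75 (SE 0.26) for PheCAD4 and 0.13 (SE 0.20) for PheCAD13.

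The effect against CK at 24 h minus that at 3 h expresses the same pattern in 1 number. In log2 units it was 2.41 (SE 0.37) under NaCl, 1.79 (SE 0.38) under PEG, 0.58 (SE 0.37) under SA and 0.91 (SE 0.37) under ABA for PheCAD4. For PheCAD13 it was 1.92 (SE 0.28), 1.95 (SE 0.29), 1.21 (SE 0.28) and -0.18 (SE 0.28) in the same order. ABA was the agent in which the genes differed in sign, and its 24 h value rests on libraries whose label is in doubt.

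The treatments were next compared with each other at the same hour, which the selection against CK did not name, although it used the same treated libraries. The genes were chosen with the values of these libraries known. Calls and adjusted p for the pairs therefore describe the differences and are no independent test of them. There were 12 pairs for each gene. The 3 pairs of ABA with another agent at 3 h are a description, without a test, since the genes were chosen for low libraries under those agents. In the other 9 pairs a difference was called at an adjusted p under 0.05 (Benjamini-Hochberg over all genes tested) in edgeR's quasi-likelihood test and a change of at least 2-fold. PheCAD4 was called in 2 of the 9 pairs and PheCAD13 in 1. The share of all genes called in these pairs ran from 14.2% to 35.5%, and nothing is read from the counts. Adjusted p alone was under the threshold in 6 pairs for PheCAD4 and in 3 for PheCAD13. The share of all genes at that looser limit was not computed, so nothing is read from these counts either.

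At 3 h the ABA libraries stood above those of PEG and NaCl for both genes. For PheCAD4, ABA was higher than PEG by 1.73 (SE 0.28) and higher than NaCl by 1.39 (SE 0.27) on the log2 scale. For PheCAD13 these differences were 1.13 (SE 0.21) and 1.08 (SE 0.20), and against SA they were 0.66 (SE 0.26) for PheCAD4 and 0.83 (SE 0.20) for PheCAD13. All 3 ABA libraries were above all 3 of PEG and all 3 of NaCl for both genes. Of all 39392 genes, 17.7% were called between ABA and PEG, 23.5% between ABA and NaCl and 32.8% between ABA and SA, and nothing is read from these shares. Without PEG 3 h replicate 1 the PheCAD13 difference to PEG was 0.96, and without ABA 3 h replicate 2 that to NaCl was 0.98.

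Among PEG, NaCl and SA at 3 h, PheCAD4 was higher under SA than under PEG by 1.06 (SE 0.28), with no overlap of libraries. The pair was called, as a description only (edgeR adjusted p = 0.00291), where 22.8% of all genes were called. This call was lost without PEG 3 h replicate 1 (0.94), PEG 3 h replicate 2 (0.84) or SA 3 h replicate 3 (0.93). The other differences among these agents were not called. For PheCAD4 they were 0.72 for SA against NaCl and 0.34 for NaCl against PEG, and for PheCAD13 0.25 and 0.06, where 14.2% and 15.7% of all genes were called. The interval of 2 SE around NaCl against PEG was -0.22 to 0.90 for PheCAD4 and -0.36 to 0.47 for PheCAD13, which leaves room for a difference of nearly 2-fold in PheCAD4. PheCAD13 under SA against PEG had 0.31, with an interval of -0.11 to 0.72.

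At 24 h the genes parted in which pairs were called, again as a description, since these values were known when the genes were chosen. PheCAD4 was lower under SA than under NaCl by -1.11 in log2 (SE 0.26, edgeR adjusted p = 0.00149), where 15.6% of all genes were called, and the value lay between -1.20 and -1.06 with any 1 library left out. PheCAD13 differed there by -0.45 (interval of 2 SE -0.84 to -0.06), which was not called. PheCAD13 was lower in the libraries labelled ABA 24 h than under NaCl by -1.02 (SE 0.20, edgeR adjusted p = 8.87e-05), where 35.5% of all genes were called, whereas PheCAD4 had -0.12 (interval -0.63 to 0.39). Leaving out NaCl 24 h replicate 1, ABA 24 h replicate 2 or ABA 24 h replicate 3 brought that PheCAD13 difference to -0.95, -0.92 and -0.99. With replicates 2 to 4 labelled 0 h instead, it was -0.45 and no longer called.

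Several 24 h differences lay at the 2-fold limit without a call, and their adjusted p is likewise a description. NaCl against PEG in PheCAD4 had 0.97 (edgeR adjusted p = 0.00421), with no overlap of libraries, where 18.8% of all genes were called, and for PheCAD13 it was 0.03 (interval of 2 SE -0.36 to 0.41). ABA against SA had 0.99 in PheCAD4 (edgeR adjusted p = 0.00212) and -0.57 in PheCAD13 (edgeR adjusted p = 0.0175), of opposite sign, where 34.6% of all genes were called. The same opposition held for ABA against PEG, with 0.85 in PheCAD4 and -0.99 in PheCAD13 and 21.8% of all genes called. Both ABA contrasts lost their sign in PheCAD4 with replicates 2 to 4 labelled 0 h instead, at -0.25 against SA and -0.39 against PEG. SA against PEG had -0.14 in PheCAD4 and -0.43 in PheCAD13, neither called, where 22.1% of all genes were.

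**Figure D3:**
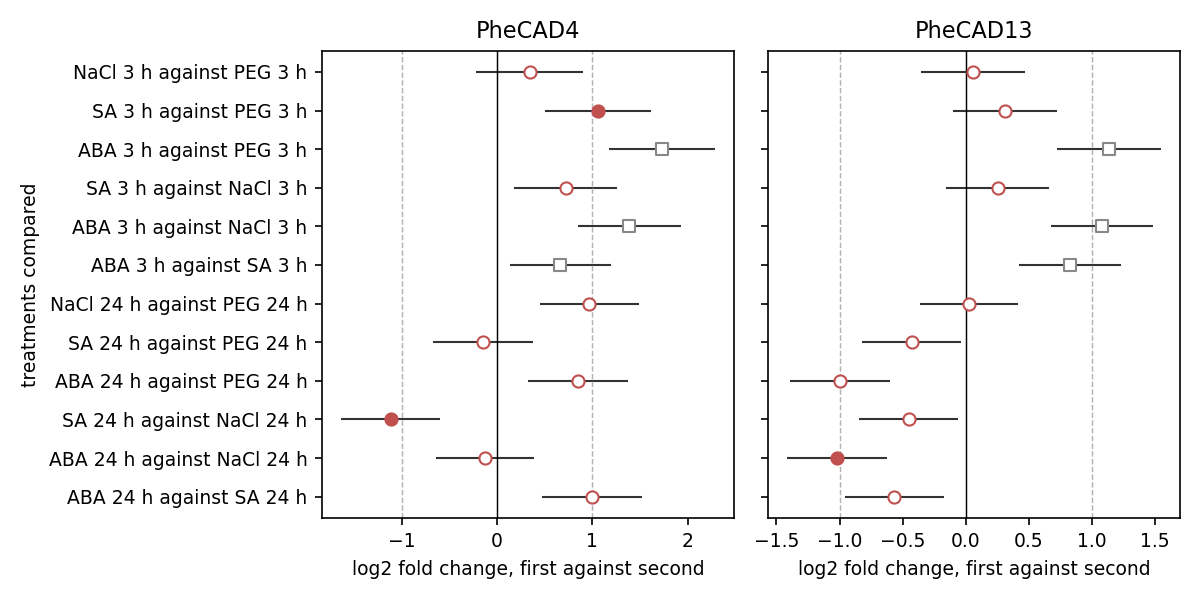
Log2 fold change between treatments at the same hour for PheCAD4 and PheCAD13, the first-named against the second, with intervals of 2 SE (3 libraries per group, except that the model shares its spread over all groups). Filled points are called, squares are the ABA pairs at 3 h that were not tested, and dashed lines mark a 2-fold change, and in PheCAD13 the NaCl against PEG intervals at both hours lie inside them.

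The balance between the genes was read as the ratio of PheCAD13 to PheCAD4 FPKM within each library. In CK at 3 h the genes were nearly equal, with ratios of 1.03 to 1.28. PEG libraries at 3 h had 2.20 to 3.87, NaCl libraries 1.69 to 3.19 and SA libraries 1.52 to 1.63, each above every CK library, since PheCAD4 was the lower of the genes relative to CK. ABA libraries ranged from 1.04 to 3.47. At 24 h the ratio was 1.18 to 2.02 in CK, 3.49 to 5.65 under PEG, 3.08 to 3.75 under SA and 1.92 to 2.65 under NaCl. All PEG and SA libraries were thus above those of NaCl, the treatment in which both genes were above CK.

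On the geometric mean the ratio under PEG was 2.41 times that of CK at 3 h and 2.62 times at 24 h, and under SA it was 1.41 times and 2.15 times. The ratio at 24 h was 2.16 times that at 3 h under SA, with no overlap, and 0.97 times under NaCl. The ratio combines values that served to choose the genes, and with 3 libraries against 3 an exact permutation test cannot go below p = 0.1, so these values are a description with no test. The libraries labelled ABA 24 h had 0.94 to 1.58, whereas the libraries labelled 0 h had 2.25 in replicate 1 and 3.50 to 5.14 in the others.

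**Figure D4:**
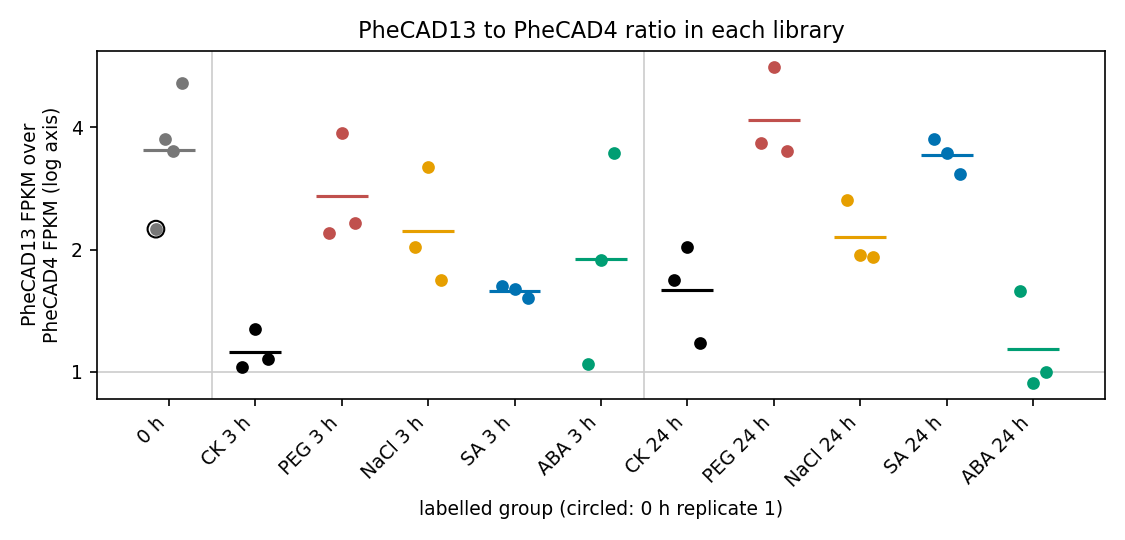
Ratio of PheCAD13 to PheCAD4 FPKM in each library (log axis) by labelled group, with the geometric mean of the group as a line and 0 h replicate 1 circled. CK 3 h libraries lie between 1.03 and 1.28, and PEG 24 h libraries between 3.49 and 5.65.

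Across all 34 libraries, log2 CPM of the genes correlated with a Pearson r of 0.61 and a Spearman rho of 0.55, a description over libraries that share groups and treatments. Over the means of the 11 groups r was 0.69, whereas deviations of single libraries from their group mean had r = -0.13. The genes were chosen for a like pattern between groups, so the value over group means restates that choice. Among the 39392 genes that passed the filter, other genes were closer to each of them. Those named here have the highest r of that whole set. For PheCAD4 the highest r were with PH02Gene04519 (0.86), PH02Gene16580 (0.81) and PH02Gene08632 (0.81), and PheCAD13 ranked 551 for it. For PheCAD13 they were with PH02Gene38220 (0.95), PH02Gene21788 (0.93) and PH02Gene17495 (0.92), and PheCAD4 ranked 2138. The 3 closest genes of one were not those of the other. Which genes were closest depended on the measure. On group means, 1 of the 3 stayed among the closest 3 for PheCAD4 and 2 for PheCAD13. On deviations from the group mean, 0 stayed for either gene.

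PheCAD1, the clade member that was not selected, offers the same contrasts as a test. It was called in 0 of the 8 comparisons with CK by edgeR at 2-fold, although the adjusted p was under 0.05 in 3 of them. At 3 h its FPKM in CK was 19.6, 20.4 and 19.8. Under PEG it was 12.6, 8.38 and 11.9, and under NaCl 12.9, 16.5 and 13.8, below CK in every library. The log2 differences were -0.47 (SE 0.18, edgeR adjusted p = 0.0336) and -0.45 (SE 0.18, edgeR adjusted p = 0.0456). Under SA its FPKM of 13.9, 13.6 and 14.2 was also below CK in every library, whereas on normalized counts the value was -0.16 (SE 0.18, edgeR adjusted p = 0.504). At 24 h it had 0.43 under PEG and 0.29 under NaCl (SE 0.18 each, edgeR adjusted p = 0.0681 and 0.178).

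The effect against CK at 24 h minus that at 3 h in PheCAD1 was 0.90 (SE 0.25, edgeR adjusted p = 0.00659) under PEG and 0.74 (SE 0.25, edgeR adjusted p = 0.0255) under NaCl. These had the sign seen in PheCAD4 and PheCAD13, were under 2-fold and so were not called. Under ABA at 3 h, PheCAD1 had 12.7, 8.29 and 11.7 FPKM, a difference of -0.74 (SE 0.18, edgeR adjusted p = 0.00153), where PheCAD4 and PheCAD13 overlapped CK. PheCAD1 thus lay below CK at 3 h under ABA as well, in distinction to the selected genes, though this distinction was not tested as such. At 0 h it had 10.4 FPKM in replicate 1 against 25.1, 26.2 and 25.1 in the others.

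The other CAD genes of the study differed among themselves, and most were not called in any one comparison with CK. The list of 12, all of which passed the filter, was taken from the study and used with earlier results known. At 3 h, 3 rose and 0 fell under PEG, 3 rose and 1 fell under NaCl, 2 rose and 1 fell under SA, and 3 rose and 1 fell under ABA. At 24 h the counts were 2 and 1 under PEG, 3 and 1 under NaCl, 2 and 1 under SA and 0 and 5 for the libraries labelled ABA 24 h. Of all genes, 12.5% rose and 11.6% fell under PEG at 3 h, 10.1% and 8.79% under NaCl, 13.7% and 13.5% under SA and 9.46% and 10.5% under ABA. At 24 h these shares were 6.18% and 8.36% under PEG, 13.7% and 14.6% under NaCl, 8.39% and 10.9% under SA and 5.80% and 12.7% for ABA. Single libraries decided some of these small counts: there were 0 falls for SA at 3 h without SA replicate 1 or 3 and 2 without CK replicate 2 or SA replicate 2, 0 for ABA at 3 h without ABA replicate 2 or 3, and 3 for ABA 24 h without ABA replicate 3.

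PheCAD3 (PH02Gene38470) and PheCAD5 (PH02Gene38471) were among the rises under every agent at 3 h, also under ABA, where PheCAD4 and PheCAD13 overlapped CK. At 3 h PheCAD3 had 1881 to 2880 counts in CK, and 12012 to 14931 under PEG, 21941 to 37608 under NaCl and 60895 to 81838 under SA. Its log2 fold changes were 3.33 (SE 0.68), 3.93 (SE 0.70) and 5.45 (SE 0.75), called by edgeR in each. PheCAD5 had 10 to 16 counts in CK, and 117 to 306 under PEG, 294 to 564 under NaCl and 867 to 1073 under SA, also called in each. Under ABA at 3 h PheCAD3 had 7712 to 9133 counts and PheCAD5 105 to 321, with log2 fold changes of 2.35 (SE 0.65) and 4.70 (SE 0.85), both called. At 24 h PheCAD3 and PheCAD5 were called higher under PEG, NaCl and SA too, where PheCAD13 was also above CK. For PheCAD5 under PEG at 24 h, with 12 to 60 counts against 0 to 15 in CK, the call was lost without either PEG replicate 1 or 2 or CK replicate 2 or 3.

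Of the 145 other genes of the lignin pathway listed by the study, 115 passed the filter. At 3 h, 24 rose and 5 fell under PEG, 27 and 15 under NaCl, 24 and 23 under SA and 29 and 4 under ABA. The median log2 fold change of those tested was 0.10 under PEG and 0.13 under NaCl, beside medians of -0.10 and -0.07 over all genes. Of all genes, 12.5% rose and 11.6% fell under PEG, 10.1% and 8.79% under NaCl, 13.7% and 13.5% under SA and 9.46% and 10.5% under ABA. C4H, the cinnamate hydroxylase early in the pathway, had 4 of 6 genes higher under PEG, 5 under NaCl, 4 under SA (with 1 lower) and 5 under ABA. PAL, the entry enzyme, had 6 of 13 higher under NaCl and under ABA, 1 under PEG and 2 under SA. CCR, the reductase that makes the aldehydes used by CAD, had 2 of 25 higher and 2 lower under PEG and 3 and 4 under NaCl. PheCAD4 and PheCAD13, chosen for being low at 3 h, were low under PEG and NaCl. More listed pathway genes rose than fell there, with 24 against 5 of 115 under PEG and 27 against 15 under NaCl. Over all genes rises exceeded falls by less, at 12.5% against 11.6% and 10.1% against 8.79%. Whether the list differs from all genes was not tested. Among the listed genes, the count of falls was 3 under PEG without PEG replicate 1 or 2, and 7 under ABA without ABA replicate 1.

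At 24 h, 9 of these 115 genes rose and 12 fell under PEG, 24 and 13 did under NaCl, and 26 and 24 under SA. PheCAD13 was above CK in each of these groups. Of all genes, 6.18% rose and 8.36% fell under PEG, 13.7% and 14.6% under NaCl, and 8.39% and 10.9% under SA. In the libraries labelled ABA 24 h, 5 of the 115 rose and 39 fell, beside 5.80% and 12.7% of all genes. Among these 39 were 13 of 13 PAL genes, and PheCAD4 and PheCAD13 were not below CK there. When replicates 2 to 4 labelled 0 h stood in for ABA 24 h, the counts were 8 and 19 (9 rises with ABA 24 h as labelled but without its replicate 2), and those of the 12 CAD genes were 3 and 1.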

How the data were processed

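The authors deposited raw read counts and FPKM values for 59091 genes in 34 libraries of poly-A RNA. Submitters' processing notes name HISAT2 and DESeq2; the counter, genome build and annotation: not given in the sources used here, nor how reads that match several near-identical copies were counted, which bears on a family in a tetraploid genome. Whole-number counts were checked and no 2 libraries were identical. Counts (28153302 to 51695158 per library) entered edgeR 4.0.16 (R 4.3.3): filterByExpr kept 39392 genes, TMM normalization, and 1 quasi-likelihood model with a mean per labelled group. SE is the absolute log2 value divided by the root of the F statistic, hence approximate. Intervals are 2 SE. Adjusted p is Benjamini-Hochberg over all genes tested; calls needed adjusted p under 0.05 and 2-fold. Correlations used log2 CPM with a prior count of 2. Plots used matplotlib 3.10.9. The method was tested on simulated data.

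The genes and lists were chosen with earlier results of these data known. Named genes were both selected genes, PheCAD1, the 3 genes most correlated with each, and other PheCAD genes called in 4 or more of 8 comparisons with CK. Alternatives were DESeq2 1.42.0, its size factors, no filter, only the groups compared, a replicate block, FPKM, TMM CPM, each library left out, and replicates 2 to 4 labelled 0 h for ABA 24 h. Chosen after seeing the data were FPKM and the exchange of labels for pairs of treatments, the exchange for the ratio, and all alternatives for PheCAD1, PheCAD3, PheCAD5 and gene counts. Replicates are biological in the study's methods, and labels do not name plants. Annotated coordinates were not used here.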

Additional observations from a re-analysis of the deposited data

Results flagged for a closer look

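Several time patterns had opposite directions at the 2 hours, with all treated libraries below CK at 3 h and all above CK at 24 h. The effect at 24 h minus that at 3 h was 2.41 in log2 units for PheCAD4 under NaCl. For PheCAD13 it was 1.95 under PEG, 1.92 under NaCl and 1.21 under SA. These differences were not tested, since the genes were chosen for this pattern.

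In PheCAD1, the library labelled 0 h replicate 1 lay far from the other libraries labelled 0 h, at 10.4 FPKM against 25.1 to 26.2, and within reach of the libraries labelled ABA 24 h (10.5 to 12.2). Chance marks about 1 in 20 groups in this way, and 4 were examined. The same library was not marked for PheCAD4 or PheCAD13.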

How the results depend on the processing

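Low counts of PheCAD4 at 3 h, 3 libraries per group and the doubtful labels of 0 h and ABA 24 h limit these results. The direction of both genes against CK under PEG, NaCl and SA at 3 h, and of PheCAD13 at 24 h under the same agents, was kept in every alternative run. As a ratio of mean FPKM, SA at 3 h moved to -1.27 for PheCAD4 and -0.79 for PheCAD13 in log2. The replicate numbers did not pair the libraries (mean r of same-numbered deviations -0.0037, 8 of 135 pairs over 0.1); with a replicate block the effect of PEG at 3 h was -1.97 for PheCAD4 and -0.73 for PheCAD13, and no call between treatments changed. The numbers of genes called with the block were 0.962 to 0.990 times those without.

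When replicates 2 to 4 labelled 0 h stood in for ABA 24 h, the effect against CK was -0.57 for PheCAD4 and 0.79 for PheCAD13. ABA 24 h against PEG, NaCl and SA was -0.39, -1.36 (called) and -0.25 for PheCAD4, and against NaCl and SA -0.45 (not called) and 0.0015 for PheCAD13. The log2 ratio of PheCAD13 to PheCAD4 was 1.36 against CK 24 h and 1.10 against ABA 3 h. PheCAD3 was at 4.03 and PheCAD5 at 5.04 against CK in place of -2.26 and -5.55, the latter fitted to 0 counts in every library labelled ABA 24 h. Genes called against PEG, NaCl and SA numbered 3041, 7082 and 7672 in place of 8579, 13982 and 13619. In a fit restricted to the groups compared, 4507 genes in place of 6969 were called for ABA against PEG at 3 h, and PheCAD5 in ABA 24 h against CK 24 h was not among the genes kept.

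Other changes of call were at the 2-fold limit: PheCAD4 under NaCl 24 h against PEG 24 h was called with DESeq2 (1.02) and with its size factors (1.02), and PheCAD13 in ABA 24 h against PEG 24 h without the filter (-1.03). By mean FPKM, SA 3 h against NaCl 3 h in PheCAD13 was -0.088 and SA 24 h against PEG 24 h in PheCAD4 0.088.

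Leaving out 1 library gave, for PheCAD4, 0.84 to 1.30 for SA 3 h against PEG 3 h, 0.40 to 1.02 for ABA 3 h against SA 3 h, 0.83 to 1.12 for NaCl 24 h against PEG 24 h, -0.29 to 0.0039 for SA 24 h against PEG 24 h and 0.93 to 1.07 for ABA 24 h against SA 24 h. For PheCAD13 it gave -0.13 to 0.20 for NaCl 3 h against PEG 3 h, 0.96 to 1.29 for ABA 3 h against PEG 3 h, 0.98 to 1.21 for ABA 3 h against NaCl 3 h, -0.14 to 0.097 for NaCl 24 h against PEG 24 h, -1.19 to -0.92 for ABA 24 h against PEG 24 h and -1.19 to -0.92 for ABA 24 h against NaCl 24 h. The log2 ratio of PheCAD13 to PheCAD4 between NaCl 24 h and NaCl 3 h lay between -0.25 and 0.21.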
